A study of Mus musculus with 12 samples.

Results

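The genes described here are 9 complement components and receptors of mouse bone marrow-derived macrophages (BMDMs): *C1qa*, *C1qb*, *C1qc*, *C3*, *Cfb*, *Cfp*, *C3ar1*, *C5ar1* and *C5ar2*. They were chosen by name, and all 9 were found among the 18376 genes of the deposited table. RNA was sequenced from 12 libraries, 3 each of BMDMs left untreated (CTRL), treated with 50 ng/ml activin A (Act), with activin A and 250 ng/ml FST288 (Act + FST), or with 250 ng/ml FST288 without activin A (FST). All cells were wild type (WT) and were grown for 6 days from bone marrow progenitors of adult C57BL6/J mice with 50 ng/ml M-CSF, which the CTRL cells received too. Activin A is a secreted protein of the TGF-beta family, and FST288 is a form of its binding protein follistatin that served as its antagonist. The activin A was the human recombinant protein and the M-CSF the mouse one, and the labels do not say whether the 3 libraries of a group came from separate mice or cultures, so p-values measure only the spread between these libraries, which may be technical.

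Complement is a cascade of plasma and tissue proteins that marks particles for uptake, draws in leukocytes and can open membranes. It can be started by C1q, which is built from the chains A, B and C and binds immune complexes and dying cells, or through the alternative pathway, in which factor B supplies the protease and properdin steadies the enzyme complex. Both routes cut C3, the component on which the pathways converge, into an opsonin fragment and the peptide C3a, and further cleavage releases C5a, which attracts phagocytes. Macrophages are a known local source of C1q, C3, factor B and properdin, and they carry the receptors for both peptides.

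Expression was measured as normalized counts, the authors' read counts divided by 1 factor per library and rounded, with totals of 5643708 to 5955400 per library. Macrophage identity was checked with 9 defining genes, all listed, whose summed normalized count was 12060 to 13619 in every library. Of the 4 hepatocyte genes checked, 0 were listed. Summed counts were 93 to 201 for 6 dendritic cell genes, 76 to 117 for 4 B cell genes, 0 to 4 for the 2 listed T and NK cell genes and 1 to 16 for the 4 listed mast cell and basophil genes, and the groups overlapped in each. In this bulk material, a change in the share of cells of a type and a change in RNA per cell cannot be told apart. Groups were compared by limma after adding 1 and taking log2, over all 14318 genes whose normalized count averaged 5 or more, and a gene was called changed where its adjusted p (Benjamini-Hochberg, over these genes) did not exceed 0.05. A differentially expressed gene (DEG) also differed by at least 2-fold. Of the 9 complement genes, 8 passed the filter on the mean and *Cfb* did not.

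Activin A raised the mRNA of *C3*, *C5ar2* and *C1qa* and lowered that of *Cfp*, and each of these 4 genes also differed in that direction between Act and Act + FST, a comparison that uses the same Act libraries. *C3* was the gene with the largest difference of the 8, 2.83-fold higher in Act than in CTRL. *C1qb*, *C1qc*, *C3ar1* and *C5ar1* were not called in any comparison of the deposited values, with or without the replicate number as a block. In Act versus CTRL, 3 of the 8 genes tested were higher, where 10.3% of all genes tested were higher, and 1 was lower, where 9.97% of all genes were lower. As a DEG on the higher side, 1 of the 8 was called, against 2.58% of all genes. The median log2 fold change was 0.09 over the 8 genes and 0.00 over all genes tested.

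**Figure D1:**
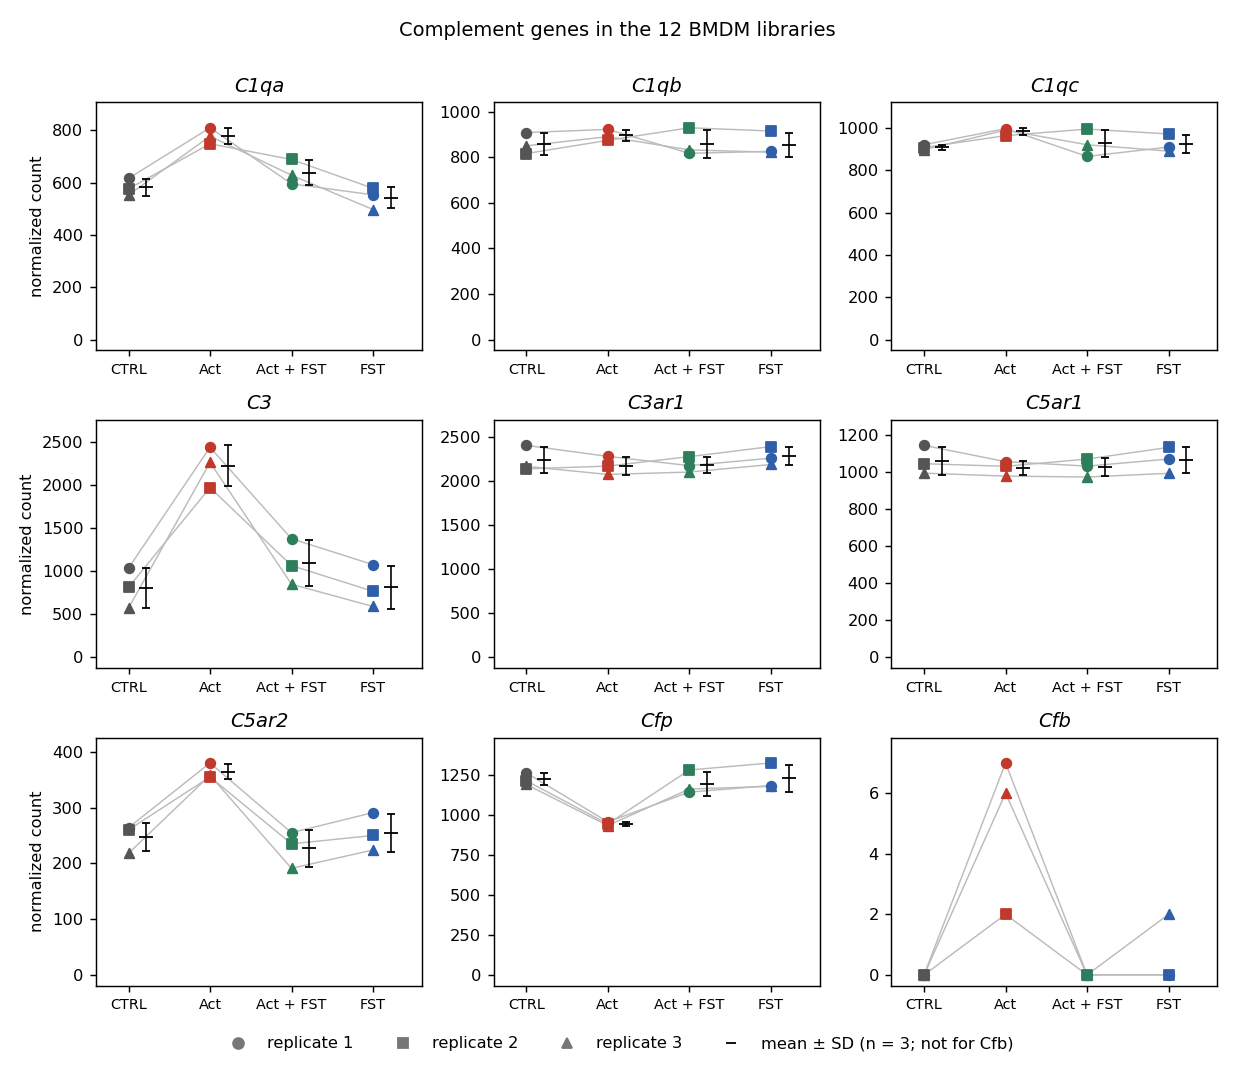
Normalized count (vertical axis, linear, from 0) of each complement gene in the 12 libraries by group, with replicates 1, 2 and 3 as circles, squares and triangles joined by grey lines, and the mean ± SD of 3 libraries in black (not drawn for *Cfb*). *C3*, *C5ar2* and *C1qa* are highest and *Cfp* lowest in the 3 Act libraries, whereas the groups overlap for *C1qb*, *C3ar1* and *C5ar1*.

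The genes sit at several places in the genome (build GRCm38), and all 9 are on the minus strand. *C1qa* (ENSMUSG00000036887) lies at chr4:136895917-136898803, *C1qc* (ENSMUSG00000036896) at chr4:136889804-136893065 and *C1qb* (ENSMUSG00000036905) at chr4:136880129-136886187, so that the genes of the C1q chains fill 18675 bases. *C5ar1* (ENSMUSG00000049130; chr7:16246743-16259540) and *C5ar2* (ENSMUSG00000074361; chr7:16234585-16244154) are also neighbours, 2588 bases apart. *C3* (ENSMUSG00000024164) is at chr17:57203970-57228136, *Cfb* (ENSMUSG00000090231) at chr17:34856374-34862518, *C3ar1* (ENSMUSG00000040552) at chr6:122847138-122856161 and *Cfp* (ENSMUSG00000001128) at chrX:20925454-20931555.

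Promoter sequences are shown for the called genes for which RefSeq gave one (GRCm38.p6; 250 bases before to 50 bases after the start, minus strand, written 5′ to 3′ along the gene), so that the DNA in front of the genes that moved can be seen beside their values. Capitals mark matches, on either strand, to 1 of the motifs CAGAC (a SMAD-binding element), GAGGAA (the core of a PU.1 site), TGANTCA (an AP-1 site), TTGCNNAA (a C/EBP site) and TATAAA (the TATA box), chosen with the results known. They cover chr17:57228087-57228386 for *C3*, chr7:16244105-16244404 and chr7:16242282-16242581 for the listed starts of *C5ar2*, and chrX:20931506-20931805 for *Cfp*.
C3: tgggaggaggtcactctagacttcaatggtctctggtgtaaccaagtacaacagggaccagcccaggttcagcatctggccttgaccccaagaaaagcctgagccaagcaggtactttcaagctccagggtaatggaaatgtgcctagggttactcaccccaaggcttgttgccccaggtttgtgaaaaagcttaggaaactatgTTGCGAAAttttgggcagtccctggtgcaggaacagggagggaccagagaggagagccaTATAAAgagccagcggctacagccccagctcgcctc
C5ar2, upstream start: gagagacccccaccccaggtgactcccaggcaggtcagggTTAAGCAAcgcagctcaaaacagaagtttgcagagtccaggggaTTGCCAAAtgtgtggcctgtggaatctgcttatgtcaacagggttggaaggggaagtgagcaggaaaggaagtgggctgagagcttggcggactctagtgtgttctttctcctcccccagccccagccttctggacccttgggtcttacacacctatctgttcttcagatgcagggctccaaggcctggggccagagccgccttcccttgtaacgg
C5ar2, downstream start: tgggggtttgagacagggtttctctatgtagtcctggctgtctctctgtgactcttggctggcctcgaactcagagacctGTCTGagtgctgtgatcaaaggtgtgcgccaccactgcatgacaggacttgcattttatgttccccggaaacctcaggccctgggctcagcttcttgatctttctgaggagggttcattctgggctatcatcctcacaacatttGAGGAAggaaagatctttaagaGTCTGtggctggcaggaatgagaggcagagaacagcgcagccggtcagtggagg
Cfp: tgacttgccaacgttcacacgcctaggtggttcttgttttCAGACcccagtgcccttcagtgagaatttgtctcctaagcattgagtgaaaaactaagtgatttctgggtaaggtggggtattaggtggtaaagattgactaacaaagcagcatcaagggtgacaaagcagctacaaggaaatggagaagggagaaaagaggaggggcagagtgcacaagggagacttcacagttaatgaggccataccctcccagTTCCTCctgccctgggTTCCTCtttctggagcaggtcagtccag
The *C3* window held 1 C/EBP match, its first base at −45 from the listed start, and 1 TATA box at 15. The window at the upstream start of *C5ar2* held 2 C/EBP matches, at −210 and −166, and the window at its downstream start held GTCTG, the reverse complement of CAGAC, at −170 and −4 and a PU.1 core at −26. The *Cfp* window held CAGAC at −210 and the PU.1 core, on the other strand, at 7 and 23. Such matches are common: of 32851 promoters of this length, 49.6% held CAGAC, 28.3% GAGGAA, 7.81% TGANTCA, 10.8% TTGCNNAA and 13.6% TATAAA. Genes not called held matches too: *C1qc* CAGAC and the PU.1 core, *C1qb* the PU.1 core, and *C3ar1* CAGAC, an AP-1 site and a TATA box. The *C5ar1* window held no match. A part of these motifs in the changes was not tested.

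C3 is the protein cut in every complement pathway, and its mRNA had the largest change of the 8 genes tested. *C3* had normalized counts of 1034, 811 and 570 in the CTRL libraries (replicates 1, 2 and 3), 2434, 1967 and 2259 in Act, 1374, 1063 and 847 in Act + FST, and 1074, 765 and 589 in FST. All 3 Act libraries were above the 9 others, and the CTRL, Act + FST and FST libraries overlapped. The mean was 2220 ± 236 for Act, 805 ± 232 for CTRL, 1095 ± 265 for Act + FST and 809 ± 246 for FST (SD, n = 3 each). *C3* was a DEG of Act versus CTRL, with a log2 fold change of 1.50 (SE 0.24, 95% confidence interval 0.98 to 2.02, limma adjusted p = 0.000795), higher in 3 of 3 pairs of libraries with the same replicate number. It was also a DEG of Act versus Act + FST, with a log2 fold change of 1.04 (SE 0.24, interval 0.52 to 1.56, limma adjusted p = 0.00765).

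Replicates of *C3* differed more than those of the other complement genes. In CTRL, Act + FST and FST alike, replicate 1 was highest and replicate 3 lowest. The residual SD of *C3* around the group means was 0.361 on the log2 scale, at percentile 99.1 of the 7886 genes averaging 200 or more, whose median was 0.0716. *C5ar2* followed with 0.164 (percentile 92.5), and the other 6 genes tested lay between 0.0620 and 0.0911. Within pairs the *C3* difference of Act to CTRL was 1.23, 1.28 and 1.98 on the log2 scale in replicates 1, 2 and 3.

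Markers of stromal cells, a cell type that also makes C3, were followed beside it. Of 7 stromal genes, 6 were listed, and their summed normalized count was 25 to 77 in CTRL, 55 to 251 in Act, 24 to 111 in Act + FST and 22 to 132 in FST, each time highest in replicate 1. *Pdgfrb* had normalized counts of 22, 31 and 22 in CTRL and 51, 41 and 43 in Act (log2 fold change 0.84, limma adjusted p = 0.060). *Col1a2* had 24, 0 and 0 in CTRL and 109, 9 and 6 in Act (limma adjusted p = 0.31). *Pdgfrb* and *Col1a2* were higher in Act in each pair, and neither was called. *Col1a1* had 22, 3 and 3 in CTRL and 83, 8 and 3 in Act. *Col3a1* had 1, 1 and 0 against 2, 1 and 3, and *Dcn* 8, 0 and 0 against 2, 2 and 0. None of these was higher in Act in every pair. *Pdgfra*, a defining stromal gene, was at 4, 0 and 0 in Act and at 2, 0 and 0 in FST, and at 0 in every CTRL and every Act + FST library. The paper reports by qRT-PCR that activin A raised *Pdgfrb* mRNA in BMDMs in a dose-dependent way. The authors propose that activin A may regulate this receptor in macrophages. Whether the higher *Pdgfrb* counts in Act came from macrophages or from stromal cells was not tested. The part of stromal cells in the *C3* result was not tested.

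Under FST288 a smaller difference of *C3* was seen that did not pass the test. Act + FST versus CTRL gave a log2 fold change of 0.46 (interval −0.06 to 0.98, limma adjusted p = 1), and *C3* was higher in Act + FST in 3 of 3 pairs. With the replicate number as a block, its adjusted p was 0.087. FST versus CTRL gave 0.01 (interval −0.51 to 0.53). The activin A effect without FST288 exceeded that with FST288 (Act + FST versus FST) by 1.05 on the log2 scale (SE 0.34), which did not pass the test (limma adjusted p = 0.0898) and passed it with the replicate block (SE 0.16, adjusted p = 0.000387), with which 9.36% of all genes had a lower and 6.96% a higher effect under FST288.

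*Cfb*, which encodes factor B of the alternative pathway, was near the lower limit of the table. It was listed at 0 in all CTRL and all Act + FST libraries, at 7, 2 and 6 in Act and at 0, 0 and 2 in FST. The Act values were at or above the highest value elsewhere, and Act replicate 2 equalled FST replicate 3. Its mean over the 12 libraries was 1.42, under the filter, so *Cfb* was not part of the test over 14318 genes. Without a filter, over 18376 genes, it was higher in Act than in CTRL (limma adjusted p = 0.0055) and than in Act + FST (adjusted p = 0.0051), and the difference in the activin A effect with and without FST288 had an adjusted p of 0.034. *Cfb* shares 2246 exonic bases, 79.5% of its length, with *Gm20547* on the same strand, and reads that overlap several genes were excluded by the authors, so that its low values are uncertain.

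*Cfp*, the gene of properdin, was the 1 gene of the 8 tested that was called lower. Its normalized counts were 1262, 1213 and 1190 in CTRL, 956, 943 and 933 in Act, 1142, 1280 and 1161 in Act + FST, and 1183, 1324 and 1178 in FST. The 3 Act libraries lay close together below the 9 others, and the other groups overlapped. The mean was 944 ± 11.5 in Act and 1222 ± 36.8 in CTRL (SD, n = 3), a log2 fold change of −0.37 (SE 0.05, interval −0.49 to −0.25, limma adjusted p = 0.000439), lower in 3 of 3 pairs. Against Act + FST (1194 ± 74.8) the log2 fold change of Act was −0.34 (SE 0.05, interval −0.46 to −0.22, limma adjusted p = 0.000859).

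Properdin is also stored by neutrophils, so their genes were followed beside *Cfp*. All 9 genes of the list of neutrophils and granulocyte precursors were listed, and their summed normalized count was 1285 to 1696 in CTRL, 1039 to 1669 in Act, 1172 to 1826 in Act + FST and 1237 to 1743 in FST. The sums overlapped between the groups, although the precursor genes *Mpo* (log2 fold change −2.01, limma adjusted p = 0.0092) and *Elane* (−1.64, adjusted p = 0.025) were lower in Act than in CTRL. Their part in the *Cfp* result was not tested.

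Of the genes of the C1q chains, *C1qa* changed with activin A. *C1qa* had normalized counts of 616, 576 and 552 in CTRL, 809, 748 and 777 in Act, 595, 688 and 628 in Act + FST, and 553, 578 and 497 in FST. The Act libraries stood above the 9 others, and the Act + FST libraries, from 595 up, overlapped with CTRL and lay above FST. The log2 fold change of Act (778 ± 30.5) to CTRL (581 ± 32.3) was 0.42 (SE 0.07, interval 0.27 to 0.57, limma adjusted p = 0.000825; SDs of 3 libraries). Against Act + FST (637 ± 47.1) it was 0.29 (SE 0.07, interval 0.14 to 0.44, limma adjusted p = 0.00821). Act + FST exceeded FST in *C1qa* by 0.23 on the log2 scale (interval 0.08 to 0.38), which did not pass the test after adjustment (limma adjusted p = 0.98, with the replicate block 0.16).

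*C1qb* and *C1qc*, whose chains assemble with the A chain, moved less. *C1qb* had normalized counts of 908, 816 and 850 in CTRL, 922, 874 and 890 in Act, 817, 929 and 832 in Act + FST, and 826, 915 and 822 in FST, and the groups overlapped. *C1qc* had 920, 907 and 897 in CTRL, 996, 963 and 989 in Act, 865, 994 and 920 in Act + FST, and 909, 971 and 890 in FST. The 3 Act libraries were above the 3 CTRL libraries for *C1qc* but not above all of Act + FST and FST. The log2 fold change of Act versus CTRL was 0.06 for *C1qb* (interval −0.07 to 0.19, limma adjusted p = 0.54). For *C1qc* it was 0.11 (interval 0.00 to 0.22, limma adjusted p = 0.14), also not called with the replicate block (adjusted p = 0.066).

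The ratio between chains removes what the genes share within a library. *C1qa* per *C1qb* was 0.678, 0.706 and 0.649 in CTRL, 0.877, 0.856 and 0.873 in Act, 0.728, 0.741 and 0.755 in Act + FST, and 0.669, 0.632 and 0.605 in FST. Act was above all others, and Act + FST was above CTRL and FST without overlap. The Act ratio was 0.36 higher than the CTRL ratio on the log2 scale (exact permutation test, two-sided, p = 0.1; 3 against 3 libraries allow no smaller p). *C1qa* per *C1qc* rose from a mean of 0.640 in CTRL to 0.792 in Act, a log2 difference of 0.31 with the same exact permutation p of 0.1. *C1qb* per *C1qc* differed by −0.05 (exact permutation p = 0.4). These ratios are of the deposited values and do not cover the correction for shared read starts given below. With that correction, *C1qa* per *C1qb* averaged 0.503 in CTRL and 0.761 in Act.

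*C5ar2*, a receptor for C5a that does not couple to G proteins, was the 1 called of the 3 anaphylatoxin receptor genes *C3ar1*, *C5ar1* and *C5ar2*. Its normalized counts were 264, 260 and 218 in CTRL, 380, 355 and 358 in Act, 255, 235 and 191 in Act + FST, and 291, 250 and 224 in FST. The Act libraries were all above 291, the highest value elsewhere, and the other groups overlapped. The log2 fold change of Act (364 ± 13.7) to CTRL (247 ± 25.5) was 0.56 (SE 0.12, interval 0.31 to 0.81, limma adjusted p = 0.00448). Against Act + FST (227 ± 32.7) it was 0.69 (SE 0.12, interval 0.44 to 0.94, limma adjusted p = 0.00113; SDs of 3 libraries). *C5ar2* shares 3.57% of its exonic bases with *Gm26473* on the same strand.

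Its neighbour *C5ar1*, the G protein-coupled C5a receptor that guides phagocytes, did not change detectably. *C5ar1* had normalized counts of 1145, 1046 and 995 in CTRL, 1057, 1032 and 979 in Act, 1033, 1071 and 974 in Act + FST, and 1071, 1134 and 994 in FST. The ranges of all 4 groups overlapped, and Act versus CTRL gave a log2 fold change of −0.05 (interval −0.19 to 0.08, limma adjusted p = 0.63). *C5ar2* per *C5ar1* averaged 0.356 ± 0.0112 for Act, 0.233 ± 0.0149 for CTRL, 0.221 ± 0.0254 for Act + FST and 0.239 ± 0.0283 for FST (SD, n = 3). The Act ratio was 0.62 higher than the CTRL ratio on the log2 scale, with no overlap (exact permutation test, two-sided, p = 0.1, the lowest possible).

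*C3ar1* encodes the receptor of C3a. Its normalized counts were 2406, 2139 and 2168 in CTRL, 2281, 2171 and 2076 in Act, 2176, 2278 and 2103 in Act + FST, and 2261, 2392 and 2189 in FST. The groups overlapped throughout. Act versus CTRL gave a log2 fold change of −0.04 (interval −0.17 to 0.09, limma adjusted p = 0.70). For *C1qb*, *C3ar1* and *C5ar1*, the interval of the Act versus CTRL difference in the deposited values thus stayed within 0.19 on the log2 scale in either direction. These intervals do not cover the correction for shared read starts given below.

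**Figure D2:**
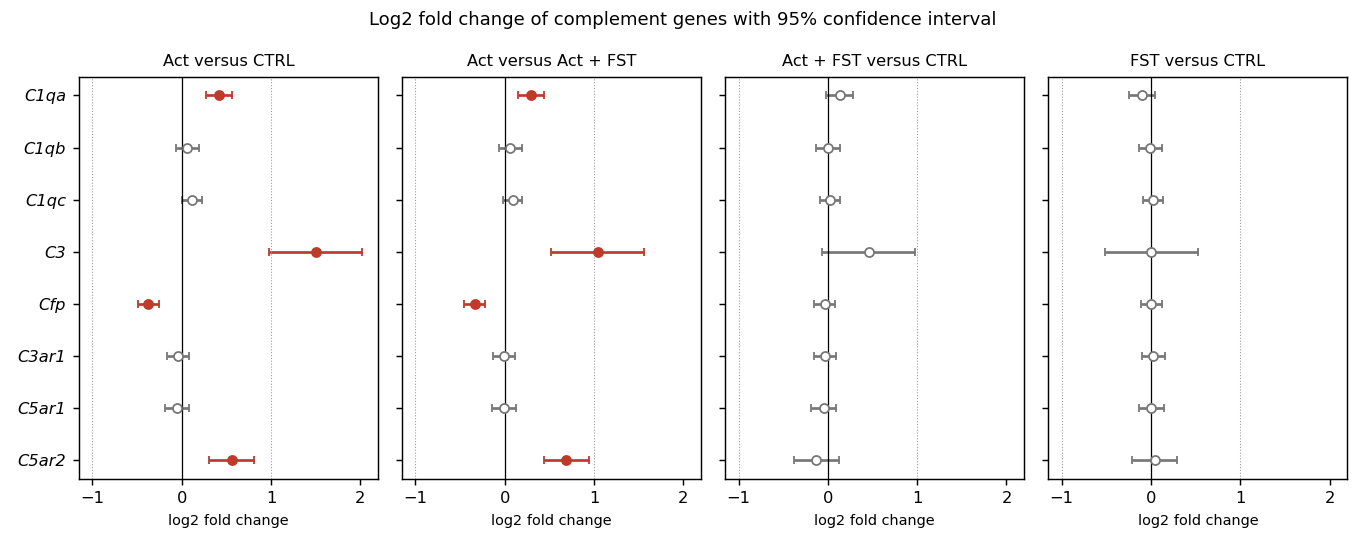
Log2 fold change (horizontal axis) of the 8 complement genes tested in Act versus CTRL, Act versus Act + FST, Act + FST versus CTRL and FST versus CTRL, with 95% confidence intervals from limma as bars; filled red points were called at an adjusted p of at most 0.05, open grey points were not, and dotted lines mark a 2-fold change. *C3*, *C5ar2*, *C1qa* and *Cfp* are called in both comparisons of Act and no gene is called in the 2 panels on the right.

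The other comparisons, in which FST288 was present on at least 1 side, asked what FST288 changed with and without activin A. They also asked what remained of the activin A effect. In Act versus Act + FST, 3 of the 8 genes were higher in Act (11.1% of all genes tested were) and 1 was lower (10.2% were). *C3* was the 1 gene also past 2-fold, as were 2.72% of all genes on the higher side. In Act + FST versus CTRL, limma called 0 of the 8 genes and 0% of all genes tested. At an unadjusted p under 0.05 it called 0 of the 8 and 4.57% of all genes. FST versus CTRL likewise gave 0 of 8 and 0% of all genes, and 0 of 8 and 2.09% unadjusted. Act + FST versus FST gave 0 of 8 and 0% of all genes. *C1qa* was the 1 gene of the 8 with an unadjusted p under 0.05 in that comparison, against 3.51% of all genes.

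Whether the activin A effect differed with and without FST288 was tested as the difference between Act + FST versus FST and Act versus CTRL. It was called for 2 of the 8 genes: 1 lower, *C5ar2*, where 3.99% of all genes were lower, and 1 higher, *Cfp*, where 2.75% were higher. For *C5ar2* the difference was −0.73 on the log2 scale (SE 0.16, limma adjusted p = 0.0191). For *Cfp* it was 0.33 (SE 0.08, limma adjusted p = 0.0232). *C1qa* had a difference of −0.19, which did not pass the test (limma adjusted p = 0.30).

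The genes were compared in level per exonic kilobase, since longer mRNAs collect more reads. The mean over the 12 libraries was 797 normalized counts per kilobase for *C1qb*, 661 for *Cfp*, 610 for *C1qa*, 516 for *C3ar1*, 484 for *C1qc*, 406 for *C5ar1*, 240 for *C3*, 76.8 for *C5ar2* and 0.501 for *Cfb*. The median over all genes with an exonic length was 35.7. *C1qb* ranked 4 of 18359 genes on this scale, *Cfp* ranked 17, *C1qa* 23 and *C3ar1* 55. These levels and ranks are of the deposited values and do not cover the correction for shared read starts given below. That correction put the CTRL mean count of *C1qb* at 1706 instead of 858 and that of *C1qc* at 1227 instead of 908. *C3* stood at 157 per kilobase in CTRL and at 432 in Act, which placed it above *C5ar1* (398) in Act but far below it (413) in CTRL.

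**Figure D3:**
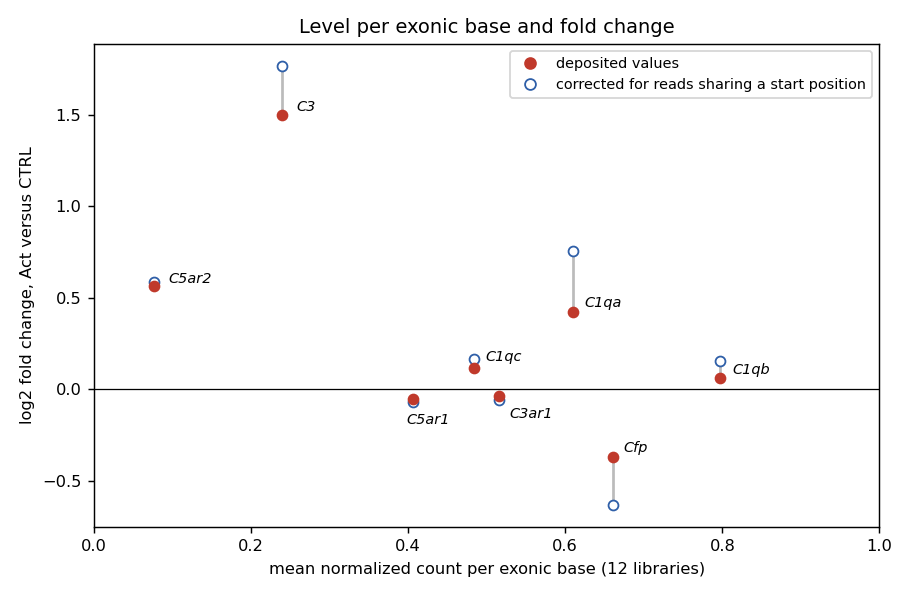
Mean normalized count per exonic base over the 12 libraries (horizontal axis) against the log2 fold change of Act versus CTRL (vertical axis) for the 8 complement genes tested, with the deposited values as filled points and the values after correcting counts for shared read starts as open circles. The correction leaves *C5ar2* near its place (0.56 and 0.59) and moves *C1qa* from 0.42 to 0.75 and *Cfp* from −0.37 to −0.63.

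In 0 genes of any library was the normalized count above 1 per exonic base, and the highest single value was 0.970. Correcting the counts as if reads with the same start had been counted once, a step added with the values in view, put the log2 fold change of Act versus CTRL at 0.75 for *C1qa*, −0.63 for *Cfp* and 1.77 for *C3*. For the genes not called, it put the log2 fold change at 0.15 for *C1qb*, −0.06 for *C3ar1* and −0.07 for *C5ar1*. The same 4 genes were called with the correction in Act versus CTRL. The correction also gave a log2 difference of 0.60 in *C1qa* per *C1qb* between Act and CTRL. With the correction and the replicate block together, *C1qc* was called as well (log2 fold change 0.16, limma adjusted p = 0.044). The correction takes normalized counts as positions used, although the original depth is unknown, and whether such reads were removed was not stated and not tested.

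The genes nearest to each called complement gene in their profile over the 12 libraries were sought among 10611 genes, by the mean absolute difference of centred log2 values. Nearest to *C1qa* were *Clec4n*, a lectin receptor (0.0537), and *Tlr2*, a Toll-like receptor (0.0542), where the median gene was at 0.192. *C3* was nearest to *Axl*, a receptor for the uptake of dying cells (0.152), and *Enpp4* (0.158), against a median of 0.566. *Axl* averaged a normalized count of 2137 in Act, against 679 in CTRL, 884 in Act + FST and 639 in FST. *C5ar2* was nearest to *Prdm1*, a transcription factor (0.0593), and *Irak2*, a kinase of Toll-like receptor signalling (0.0642), against 0.255. *Cfp* was nearest to *Fh1*, the fumarate hydratase gene (0.0298), and *Fggy* (0.0313), against 0.162.

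Other genes of the complement system were followed in a list of 56, of which 31 were in the table and 23 were tested. In Act versus CTRL 1 of them, *Vsig4*, was higher and 4 were lower (*Fcna*, *Cd59a*, *Cd93* and *Sez6l2*), with shares of all genes of 10.3% and 9.97% as given above. The replicate block gave 3 higher and 6 lower, adding *C1ra* and *C1rl* to the first and *Cd55* and *Itgax* to the second (all genes: 16.3% higher and 15.2% lower). The median log2 fold change was −0.06 over the 23 genes and 0.00 over all genes.

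Among the 8 classical and lectin pathway genes tested, 1 was lower in Act than in CTRL (9.97% of all genes tested were) and 0 were higher (10.3% were). *Fcna*, which encodes the pattern-recognition protein ficolin A, had normalized counts of 235, 280 and 280 in CTRL, 91, 103 and 72 in Act, 245, 277 and 285 in Act + FST, and 253, 304 and 325 in FST. The Act libraries were far below all others. The log2 fold change of Act versus CTRL was −1.58 (SE 0.13, limma adjusted p = 6.7e-06) and that of Act versus Act + FST was −1.60. *Fcna* shares 6.55% of its exonic bases with *Fcnaos* on the other strand. *C1ra* and *C1rl*, related to the C1r protease that C1q activates, had log2 fold changes of 0.24 each in Act versus CTRL, which passed only with the replicate block (limma adjusted p = 0.044 and 0.030, without the block 0.11 and 0.17). The C1s protease gene *C1s1* was below the filter, at 1 in each CTRL library and at 5, 5 and 8 in Act. It was at 1, 7 and 1 in Act + FST, which overlapped with Act, and at 1, 0 and 0 in FST. *C1s1* shares 18.4% of its exonic bases with *Gm16567* on the other strand.

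*C4b*, a C4 gene of the classical pathway, had another pattern. Its normalized counts were 30, 29 and 21 in CTRL, 23, 23 and 16 in Act, 58, 61 and 50 in Act + FST, and 38, 29 and 46 in FST. All 3 Act + FST libraries were above the 9 others. *C4b* was lower in Act than in Act + FST (log2 fold change −1.42, SE 0.22, limma adjusted p = 0.00071). In Act + FST versus CTRL its log2 fold change was 1.06 (SE 0.22, limma adjusted p = 0.42), and it passed the test with the replicate block (adjusted p = 0.049), where 0.279% of all genes were higher. Because *C4a* is nearly identical in sequence, how reads were split between the C4 genes is uncertain.

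Of the 5 regulators tested, 2 were lower in Act than in CTRL, where 9.97% of all genes were lower. *Cd59a*, a membrane inhibitor of the terminal complex, had normalized counts of 97, 103 and 104 in CTRL, 62, 56 and 49 in Act, 100, 83 and 105 in Act + FST, and 119, 99 and 109 in FST. Act was below all other libraries (log2 fold change to CTRL −0.86, SE 0.13, limma adjusted p = 0.00042). *Sez6l2*, lower by 0.71 on the log2 scale, had an adjusted p of 0.046 in limma. In Act versus Act + FST its log2 fold change was −0.34 and was not called (limma adjusted p = 0.35). *Sez6l2* shares 9.81% of its exonic bases with *Gm21984* on the same strand.

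*Cd55*, the decay-accelerating factor of the C3 convertases, was low in every group. Its normalized counts were 52, 31 and 30 in CTRL, 36, 12 and 14 in Act, 68, 40 and 42 in Act + FST, and 43, 36 and 32 in FST. Act was below Act + FST without overlap (log2 fold change −1.36, SE 0.37, limma adjusted p = 0.019) but overlapped with CTRL (−0.96, adjusted p = 0.089, with the replicate block 0.0033).

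Of the 9 other receptor genes tested, 1 was higher and 1 lower in Act than in CTRL, shares close to those of all genes (10.3% and 9.97%). *Vsig4*, a macrophage receptor for C3 fragments, had normalized counts of 17, 7 and 1 in CTRL, 41, 31 and 27 in Act, 18, 5 and 7 in Act + FST, and 13, 6 and 8 in FST. The Act libraries were above all others, with a log2 fold change to CTRL of 2.34 (SE 0.66, limma adjusted p = 0.025) that rests on few counts. In Act versus Act + FST it was 1.79 (limma adjusted p = 0.076, with the replicate block 0.0074). *Cd93*, once described as a C1q receptor, had 2845, 2475 and 2711 in CTRL, 2216, 2035 and 1829 in Act, 2727, 2599 and 2732 in Act + FST, and 2865, 2680 and 2695 in FST. Its Act libraries were below the 9 others (log2 fold change to CTRL −0.40, SE 0.07, limma adjusted p = 0.0014).

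The integrin receptors of C3 fragments consist of *Itgb2* with *Itgam* (complement receptor 3) or with *Itgax* (complement receptor 4). *Itgam* had a log2 fold change of 0.02 in Act versus CTRL (interval −0.11 to 0.15) and *Itgb2* of −0.02 (interval −0.13 to 0.08). *Itgam* shares 68.7% of its exonic bases with *Gm49368* on the same strand, so its level is uncertain. *Itgax* had normalized counts of 663, 527 and 473 in CTRL, 442, 342 and 400 in Act, 379, 283 and 206 in Act + FST, and 497, 424 and 437 in FST. Its values were lowest under activin A and FST288 together, with a log2 fold change of −0.97 in Act + FST versus CTRL (SE 0.18, limma adjusted p = 0.42) that was called with the replicate block (adjusted p = 0.0020), where 0.279% of all genes were lower.

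**Figure D4:**
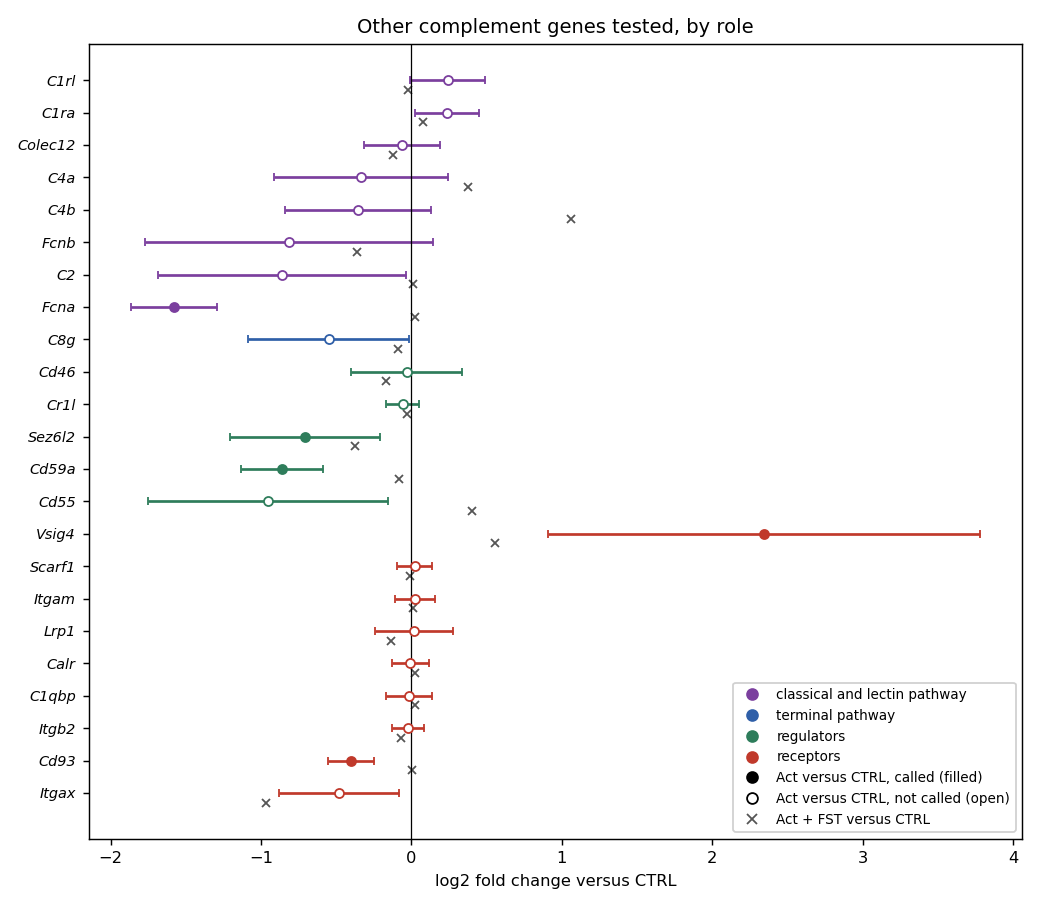
Log2 fold change of Act versus CTRL (horizontal axis) with 95% confidence intervals for the 23 other complement genes tested, coloured by role, with filled points called at an adjusted p of at most 0.05, open points not called, and crosses for Act + FST versus CTRL. *Fcna*, *Cd59a*, *Cd93* and *Sez6l2* are called on the lower side and *Vsig4* on the higher side, and the crosses of *C4b* (1.06) and *Itgax* (−0.97) lie farthest from 0.

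In Act versus Act + FST, 0 of the 23 genes were higher in limma's test (11.1% of all genes were) and 5 were lower (10.2% were), namely *C4b*, *Cd55*, *Cd59a*, *Cd93* and *Fcna*. With the replicate block 4 were higher (*C1rl*, *Itgax*, *Lrp1* and *Vsig4*; all genes: 17.1%) and 7 lower (all genes: 15.4%). The lower ones were the 5 named, *C2* and *C4a*. *C2* was low, at 5, 7 and 5 in Act and 13, 17 and 6 in Act + FST. It shares 42.8% of its exonic bases with *Gm20547* on the same strand, so its level is uncertain.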

How the data were processed

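RNA of 12 BMDM libraries (3 per group) was sequenced as single-end reads. Per the labels and the study's methods, the authors trimmed reads with Trimmomatic 0.39, aligned them with STAR 2.7.9a to mm10 and used featureCounts 2.0.2 to assign reads to genes, excluding those that hit more than 1 gene or position. The authors' own test was DESeq2 1.30.0. The deposited signal is these counts after scaling each library by a single factor and rounding, so original depths are unknown and totals do not show them. Removal of duplicate reads and the strand setting are not given in the sources used here.

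Whole reads could not be recovered, so the count test planned was replaced by the one planned for normalized values: limma 3.58.1 (R 4.3.3, eBayes with trend) on log2(normalized count + 1), mean at least 5, 12 libraries, 4 group means, Benjamini-Hochberg over 14318 genes. Fold changes on this scale understate changes of low genes. Adjusted p-values are from limma and two-sided. In simulated data of Act versus CTRL over 14318 genes, 189 of 197 genes changed 3-fold met the DEG rule, as did 1 unchanged gene. Calls without the 2-fold limit were not counted there. Smaller changes, and libraries that vary together by replicate number, were not simulated. The simulation thus does not measure the error of calls such as those of *C1qa*, *C5ar2* and *Cfp*.

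Replicate numbers come from the labels. Libraries of the same number deviated from their group means together (mean correlation across genes 0.312 over 18 pairs, each between 0.157 and 0.481), so a fit with the number as a block is given where it changes a call. Alternatives were pseudocounts of 0.5 and 5, no filter or a mean of 50, TMM factors, quantile normalization, only the libraries compared, the block, and leaving out each library. The correction for shared read starts was added after seeing the data: with n counts on L exonic bases it took −L ln(1 − n/L), with n/L at most 0.99.

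The complement genes, the list of 56 further genes, the marker lists and the motifs were chosen with earlier results of these data known. Values are given for all 9 genes. Beyond these, the rule names genes of the list of 56 called in Act versus CTRL or in Act versus Act + FST, and the 2 nearest profiles of each called gene among genes with a mean of at least 50. *C1s1*, *Itgam*, *Itgb2* and genes called only with the block were named after their values were seen. Of the gene identifiers, 18359 were found in the GENCODE annotation of GRCm38 and 17 were not. Promoters were matched by symbol for 7 of the 9 genes. A further gene planned for the list is not reported here. No library was left out.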

Additional observations from a re-analysis of the deposited data

Results flagged for a closer look

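The activin A effect on 2 complement genes differed between cells with and without FST288 in a test of the difference itself. For *C5ar2* the log2 fold change was 0.56 without FST288 (Act versus CTRL) and −0.17 with it (Act + FST versus FST), a difference of −0.73 (SE 0.16, limma adjusted p = 0.0191; with the replicate block, adjusted p = 0.000115). Leaving out each of the 12 libraries in turn, the *C5ar2* call was kept in 11 fits and lost without CTRL replicate 3 (adjusted p = 0.0512). For *Cfp* it was −0.37 without and −0.04 with FST288, a difference of 0.33 (SE 0.08, limma adjusted p = 0.0232; with the replicate block 0.00206). Its call was kept in 8 of the 12 fits and lost without Act replicate 2, Act replicate 3, FST replicate 1 or FST replicate 3, with adjusted p-values up to 0.0635.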

How the results depend on the processing

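Over 48 comparisons of the 8 complement genes, 808 values were recomputed. Of these, 797 stayed as called or not called, 5 lost a call, 6 gained one and 0 called values reversed. The sign changed in 50 values not called in either fit. Most of the 797 were not called in either fit, as were all 128 in FST versus CTRL. The lost calls were 1 of *C5ar2* and 4 of *Cfp*, all in the test of the activin A effect with against without FST288. The calls of *C3*, *C5ar2*, *C1qa* and *Cfp* in Act versus CTRL and in Act versus Act + FST were kept in all alternatives run, with 3 genes higher and 1 lower throughout when each library was left out. The replicate block moved the calls over all genes in Act versus CTRL to 2338 higher and 2170 lower (2320 and 2158 with the correction for shared read starts added), from 1468 and 1428, and in Act versus Act + FST to 2453 and 2210 (2444 and 2217 with the correction), from 1588 and 1460. Leaving out 1 library gave 1075 to 1424 higher and 1010 to 1246 lower in Act versus CTRL, and 1227 to 1678 higher and 1080 to 1415 lower in Act versus Act + FST. In the test of the activin A effect with against without FST288, the complement genes called lower went from 1 to 2 without a filter on the mean (*Cfb* entering), to 2 with the replicate block (*C3* entering, difference −1.05) and to 3 with the block and the correction (*C3* and *C1qa*). They were 0 to 2 with 1 library left out, *C3* entering without CTRL replicate 1 or FST replicate 3, and the genes called higher were 0 to 1. Apart from these and *C1qc* with the block and the correction, the block changed no call of the 8 genes. The causes were not tested. *Cfb* has a value only without the filter (Act versus CTRL, adjusted p = 0.0055). The depth of the libraries is unknown.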
